A study of Rattus norvegicus with 40 samples.

Results

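The 200 most abundant hippocampus-restricted transcripts were chosen from the 31715 transcripts listed in the deposited tables. A transcript qualified when its mean over the 10 hippocampus samples was at least 10 TPM and at least 20 times its mean in the liver, in the soleus muscle and in the fat, after 0.1 TPM had been added to every mean. TPM scales the reads of a transcript to its length and to a fixed total per library, so that levels of different transcripts can be compared. Of 10180 transcripts at 10 TPM or more in hippocampus, 1125 passed both thresholds, and the 200 with the highest hippocampus mean were kept. The level in the 4 tissues therefore selected these transcripts and is given as a description, without a test. Genotype and the spread between rats were not used by the rule.

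RNA was sequenced from the hippocampus, liver, soleus muscle and perirenal fat of wild-type rats and of heterozygous littermates, SHR-Tti2+/-. Each tissue had 5 samples of each genotype, 40 in all, from 12 numbered rats, 6 of each genotype. All rats were of the inbred, spontaneously hypertensive strain SHR/OlaIpcv, and the knockout was a germline frameshift deletion made with a zinc finger nuclease in a founder animal. The deletion is carried by every tissue, so a difference in hippocampus need not arise there. The labels name the fat depot peritoneal and the methods perirenal. The age of the sequenced rats is not given in the sources used here. The libraries, strand-specific and made from polyadenylated RNA, had estimated counts that summed to between 19176393 and 32713126 per sample. The genotype question was whether the loss of 1 copy of Tti2, which encodes a cochaperone for the large kinases related to phosphatidylinositol 3-kinase, such as mTOR and ATM, altered transcript levels.

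The hippocampus is a cortical structure that serves learning and memory, and its dentate gyrus goes on producing neurons in adult rodents. Its tissue holds neurons, astrocytes, oligodendrocytes, microglia and vessels, and transcripts that are abundant in brain and low in liver, muscle and fat typically encode synaptic, cytoskeletal, neuropeptide and myelin proteins. In tissue samples, fewer cells of a type and less RNA per cell cannot be told apart. The tables do not pair Ensembl transcript IDs with gene names, and the gene table used here matched none of the IDs. The transcripts are therefore described by ID, and neither Tti2 itself nor the marker genes of hippocampal cell types could be looked up. The label of the tissue was not checked against markers for this reason, and restricted refers to these 4 tissues alone.

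The 200 transcripts ranged from 141 to 2184 TPM in hippocampus, with a median of 237 and quartiles of 172 and 384. The level just inside the rank limit was 141.1 TPM, for ENSRNOT00000080703.1, and just outside it 140.6 TPM, for ENSRNOT00000007604.6. The lowest ratio to the next tissue was 20.02 in ENSRNOT00000024280.4, while ENSRNOT00000075948.1, at 586 TPM in hippocampus, stayed outside with a ratio of 19.98. Most transcripts were far from that limit. The ratio to the highest other tissue had a median of 189 and reached 5310, and it was at least 100 for 126 transcripts and at least 1000 for 41. For 27 transcripts it was under 40.

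The low level outside the hippocampus differed between tissues. The mean of the median transcript was 0.0933 TPM in liver, 0.292 TPM in muscle and 0.783 TPM in fat. The highest other tissue was the fat for 123 transcripts, the muscle for 58 and the liver for 19. A mean under 1 TPM was found for 166 transcripts in liver, 146 in muscle and 105 in fat, and 93 were under 1 TPM in all 3. At the other end, 3 transcripts reached a mean of 10 TPM in liver, 6 in muscle and 13 in fat. Every sample of a tissue was listed at 0 TPM for 12 transcripts in liver, 5 in muscle and 4 in fat.

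Together the 200 transcripts made up between 6.37% and 7.36% of all TPM in the wild-type hippocampi and between 6.92% and 7.32% in the SHR-Tti2+/- hippocampi. The share was 7.03% ± 0.405 (SD, n = 5) in wild-type rats, with 6.99% in rat 1, 6.37% in rat 2, 7.36% in rats 3 and 6, and 7.08% in rat 5. In SHR-Tti2+/- rats it was 7.13% ± 0.154 (SD, n = 5), with 7.21%, 7.03%, 6.92%, 7.32% and 7.15% in rats 1 to 5. The genotypes overlapped, and wild-type rat 2 was the lowest of the 10. Without that sample the wild-type share was 7.20% ± 0.190 (SD, n = 4), so the order of the 2 means turned. The 10 highest transcripts held 20.6% of the summed TPM.

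In the other tissues the same 200 transcripts made up 0.0588% to 0.0680% of TPM in wild-type fat, 0.0377% to 0.0594% in wild-type muscle and 0.0173% to 0.0212% in wild-type liver. In SHR-Tti2+/- rats the ranges were 0.0603% to 0.0654% in fat, 0.0386% to 0.0496% in muscle and 0.0181% to 0.0186% in liver. The 2 genotypes overlapped in each of these tissues.

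**Figure D1:**
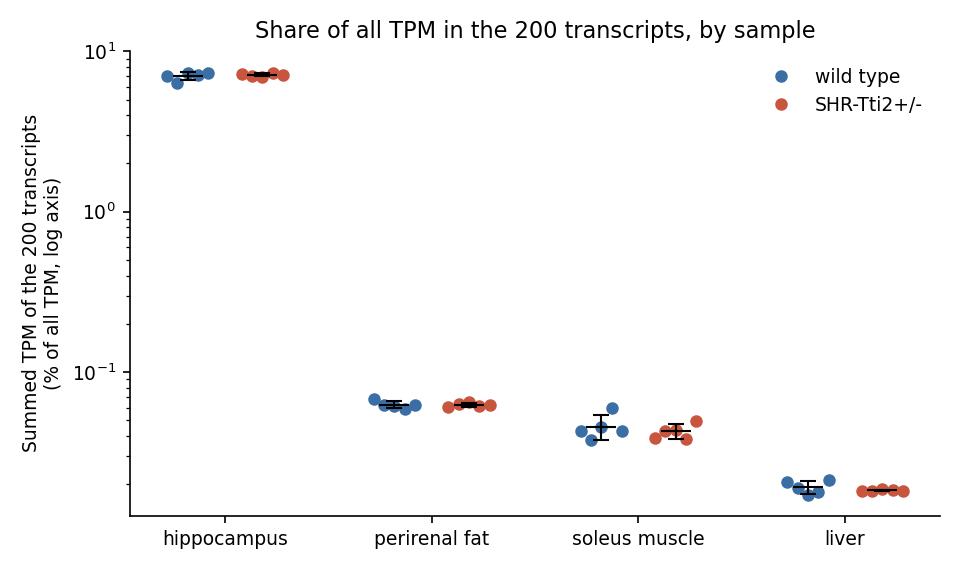
The summed TPM of the 200 transcripts in each of the 40 samples, as a percentage of all TPM on a log axis, by tissue and genotype; bars show mean and SD over 5 samples. The hippocampi lie between 6.37% and 7.36%, and every sample of another tissue lies at or below 0.0680%.

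The 5 most abundant transcripts, in descending order, were ENSRNOT00000074404.2 with a hippocampus mean of 2184 TPM, ENSRNOT00000064297.3 with 2065 TPM, ENSRNOT00000041533.5 with 1761 TPM, ENSRNOT00000008734.7 with 1493 TPM and ENSRNOT00000071620.2 with 1476 TPM. The last of these is only 225 bases long. Outside the hippocampus they differed: ENSRNOT00000074404.2 averaged 71.1 TPM in fat, 27.2 in liver and 22.5 in muscle, whereas ENSRNOT00000008734.7 averaged 0.745 TPM in fat, 0.189 in muscle and 0.0892 in liver.

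In wild-type rats 1, 2, 3, 5 and 6, ENSRNOT00000074404.2 was at 1947, 1879, 2391, 2214 and 2350 TPM, and in SHR-Tti2+/- rats 1 to 5 at 2285, 2201, 2155, 2294 and 2126 TPM. The SHR-Tti2+/- values lay inside the wild-type range. ENSRNOT00000064297.3 was at 1895, 1599, 2188, 2174 and 2239 TPM in the wild-type rats and at 2159, 2094, 2048, 2173 and 2085 TPM in the SHR-Tti2+/- rats. ENSRNOT00000041533.5 showed the widest spread of the 5, with 2192, 948, 1731, 1858 and 1791 TPM in the wild-type rats against 1745, 1808, 1768, 1790 and 1974 TPM in the SHR-Tti2+/- rats. Wild-type rat 2 had the lowest value of all 5 transcripts. The log2 fold changes of these 5 transcripts, SHR-Tti2+/- over wild type, were between 0.02 and 0.10 in the edgeR fit, with adjusted p-values of 0.942 to 0.959.

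The transcripts had a median length of 2247.5 bases, with quartiles of 1329 and 3327 and a range from 201 to 11866. The other 749 transcripts at their level or above had a median of 1096 bases, and the other 9980 transcripts at 10 TPM or more in hippocampus a median of 2037 bases. Length enters TPM as a divisor, and 11 of the 200 transcripts were under 500 bases. The estimated count of a transcript in a hippocampus was between 32 and 136414, with a median of 8298.5. Counting error was accordingly small for most of the 200, with a median SD of 0.0156 on the log2 scale, reaching 0.226 for the transcript with the fewest counts; it covers counting error only.

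The hippocampus of wild-type rat 2 stood apart from the other 9 in the levels of these transcripts. Relative to the mean of the other 9, the median transcript was at 0.766 times the level in rat 2, and the ratios ran from 0.221 to 8.23. In that sample 78 transcripts were at least 1.5 times lower and 18 at least 1.5 times higher, which is 39% and 9% of the 200. Among the other 925 transcripts past both thresholds, 35.4% were as much lower and 14.3% as much higher. Among the other 749 transcripts at the level of the 200, these shares were 6.68% and 2.4%, and among the other 9980 at 10 TPM or more 11.2% and 5.05%.

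Rat 2 had the lowest of the 10 values for 131 of the 200 transcripts and the highest for 47. Among the other 925 past both thresholds it was lowest for 482 and highest for 236. Among the other 749 at the level of the 200, these counts were 352 and 153. Among the other transcripts at 10 TPM or more, it was lowest for 42.2% and highest for 19.3%. At 2-fold, 36 transcripts (18%) were lower and 9 (4.5%) higher. The shares at 2-fold were 18.9% and 8.22% of the other 925, and 1.34% and 0.801% of the other 749. They were 4.29% and 2.10% of the other 9980 at 10 TPM or more. The departure was also counted by restriction, without a test. Of the 41 with a ratio of at least 1000 to the next tissue, 24 were at least 1.5 times lower in rat 2 and 3 as much higher, with a median of 0.596 times the other 9. Of the 74 with a ratio under 100, 22 were lower and 5 higher, with a median of 0.815 times the other 9.

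Other values of the same sample moved with this. Its total estimated count, 32713126, was the highest of all samples, and the other 9 hippocampi had at most 23159304. Transcripts restricted to muscle by the same rule made up 0.0617% of its TPM against 0.0321% to 0.0356% in the other 9. Those restricted to liver made up 0.152%, against 0.264% in SHR-Tti2+/- rat 5 and 0.0567% to 0.0763% in the remaining hippocampi. Those restricted to fat made up 0.0939% against 0.0867% to 0.135%, inside the range of the other hippocampi. The fat, liver and muscle samples labelled wild-type rat 2 held 0.0628%, 0.0190% and 0.0430% of their TPM in the 200 transcripts, inside the range of their groups. The part of depth or of other cells in the departure was not tested. The methods state that a hippocampus sample was left out of the authors' own test, without naming it. All 10 are used here because the rule used them. Share, spread and genotype results in hippocampus are given with and without wild-type rat 2. The 200 were not chosen again without it, and variation shared between transcripts is described over the other 9 only.

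**Figure D2:**
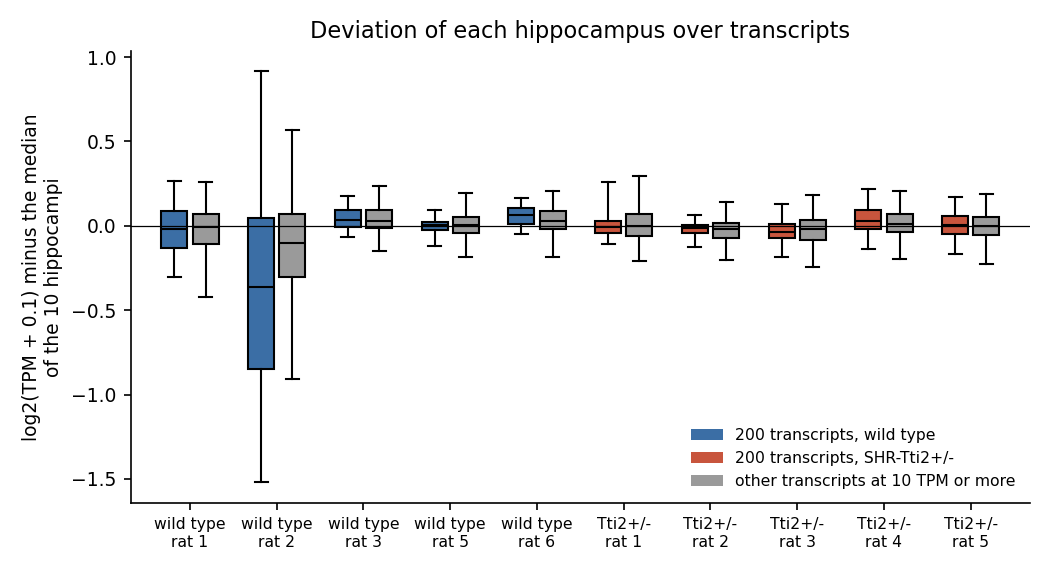
Log2(TPM + 0.1) of each hippocampus minus the median of the 10, over the 200 transcripts (coloured) and the other 9980 transcripts at 10 TPM or more (grey). Boxes show the median and quartiles and whiskers the central 90% of transcripts; the median of the 200 is -0.37 in wild-type rat 2 and between -0.03 and 0.06 in the other 9 rats.

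No other hippocampus departed in this way. Compared with the mean of the other hippocampi except wild-type rat 2, at most 1 transcript was at least 1.5 times lower, and at most 1 as much higher, in any of the 9. At the smaller limit of 1.2-fold, 21 transcripts were lower and 8 higher in wild-type rat 1, and 11 were higher and 2 lower in SHR-Tti2+/- rat 1. Among these 9 hippocampi, wild-type rat 6 had the highest value for 61 transcripts and the lowest for 4. Wild-type rat 1 had the highest for 43 and the lowest for 67. SHR-Tti2+/- rat 2 lay between the others, with the highest value for 0 transcripts and the lowest for 15.

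The spread between rats was measured as the SD of log2(CPM + 0.5) within each genotype, pooled over both, where CPM is the estimated count scaled to library size with edgeR's TMM factors. Its median over the 200 transcripts was 0.191, with quartiles of 0.107 and 0.306. Without wild-type rat 2 the median was 0.0828, with quartiles of 0.0534 and 0.116, and the SD was smaller for 185 of the 200. The number of transcripts with an SD above 0.2 went from 94 to 13 without that rat, and 132 were then below 0.1. Within genotype the median SD was 0.254 in the 5 wild-type rats, 0.0869 in the 4 without rat 2, and 0.0708 in the 5 SHR-Tti2+/- rats.

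Other transcripts at the level of the 200 varied less: their median SD was 0.0908 over the 10 hippocampi and 0.0632 over the 9. For the other transcripts past both thresholds, which were lower in level, it was 0.241 and 0.124. For the other transcripts at 10 TPM or more in hippocampus it was 0.124 and 0.0915. Against these the 200 had the larger median over the 10 hippocampi and the smaller one over the 9. No test of these differences was made, since the transcripts share the same 10 samples. The SD exceeded 3 times the counting SD for 187 of the 200 transcripts, and for 154 without wild-type rat 2. Length went with some of the remaining spread: without that rat the median SD was 0.143 in the 11 transcripts under 500 bases, whose median estimated count was 674, and 0.0798 in the other 189, whose median count was 8940.

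**Figure D3:**
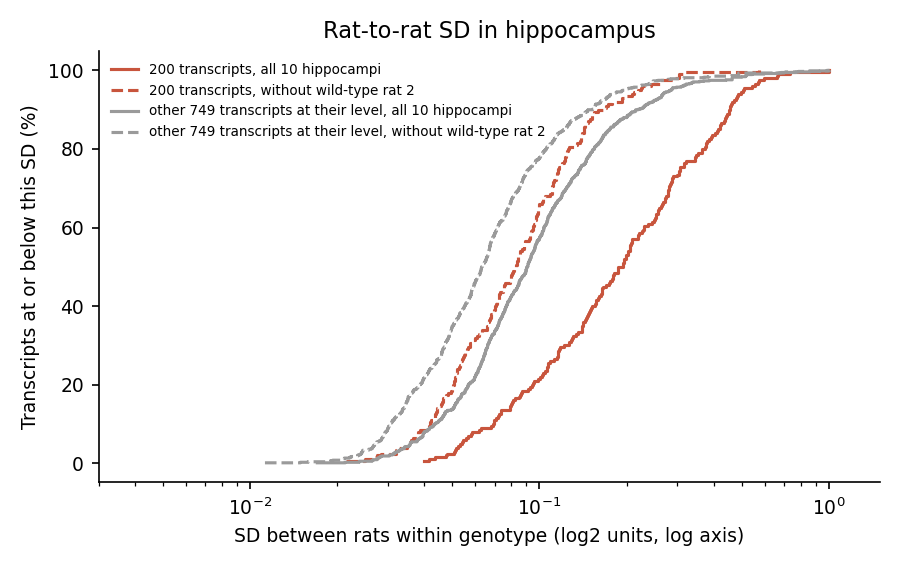
Cumulative percentage of transcripts (vertical axis) at or below each rat-to-rat SD of log2(CPM + 0.5), on a log axis, for the 200 transcripts (red) and the other 749 transcripts at their level (grey), over 10 hippocampi (solid) and without wild-type rat 2 (dashed). The medians of the 200 are 0.191 and 0.0828, those of the others 0.0908 and 0.0632.

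The 4 transcripts with the largest SD had their outlying value in wild-type rat 2. ENSRNOT00000061047.3, of 525 bases, was at 326, 2753, 323, 326 and 318 TPM in wild-type rats 1, 2, 3, 5 and 6 and at 331, 297, 365, 348 and 376 TPM in SHR-Tti2+/- rats 1 to 5. Rat 2 was the only sample outside 297 to 376 TPM, and the SD of 1.00 became 0.105 without it. This transcript stayed at or below 0.934 TPM in every liver, muscle and fat sample.

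ENSRNOT00000020926.5 had 140, 695, 171, 146 and 154 TPM in the wild-type rats and 205, 138, 133, 175 and 149 TPM in the SHR-Tti2+/- rats. ENSRNOT00000081888.1, of 264 bases, had 252, 900, 230, 179 and 233 TPM against 236, 246, 203, 202 and 240 TPM. In both, rat 2 was far above the other 9, which overlapped between genotypes. ENSRNOT00000002519.3 went the other way in rat 2, with 138, 41.2, 206, 189 and 203 TPM in the wild-type rats against 200, 189, 219, 176 and 158 TPM in the SHR-Tti2+/- rats. It was listed at 0 TPM in every sample of the other 3 tissues. Without rat 2 the SDs of these 3 transcripts went from 0.737, 0.668 and 0.663 to 0.193, 0.173 and 0.209.

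The steadiest transcripts were ENSRNOT00000068102.3 and ENSRNOT00000026063.4, with SDs of 0.0400 and 0.0417. ENSRNOT00000026063.4 was at 164, 165, 163, 166 and 174 TPM in the wild-type rats and at 164, 165, 158, 171 and 166 TPM in the SHR-Tti2+/- rats. ENSRNOT00000068102.3 was at 157, 151, 166, 165 and 174 TPM against 162, 151, 158, 170 and 165 TPM. Wild-type rat 2 was not apart from the other rats in either.

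With wild-type rat 2 left out, ENSRNOT00000086036.1 and ENSRNOT00000058296.5, named here after their values were seen, varied most, with SDs of 0.572 and 0.314. ENSRNOT00000086036.1 was at 139, 184, 73.1 and 248 TPM in wild-type rats 1, 3, 5 and 6 and at 226, 114, 114, 134 and 164 TPM in the SHR-Tti2+/- rats. High and low values occurred in both genotypes. Where several transcripts of a gene share reads, as kallisto allows, an estimate can move between them, and the tables do not show which of the 200 share a gene.

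Some of the remaining variation was shared between transcripts. Principal components were taken over the 9 hippocampi without wild-type rat 2, with the genotype means removed and the log2 values left unscaled. The leading component of the 200 transcripts held 46.1% of their variance and the next 22.2%. Transcripts with a large SD weigh most in these shares, which were not computed for other transcripts. A pair of groups of co-varying transcripts was followed from ENSRNOT00000003283.6 and ENSRNOT00000047289.5, both chosen after the values were seen. All correlations are Pearson's r over the same 9 samples and share their library and depth, and they are given without a p-value. The other transcripts set beside them start at 10 TPM and the 200 at 141 TPM, so the shares are not matched for level.

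ENSRNOT00000003283.6 was at 728, 1247, 859 and 836 TPM in wild-type rats 1, 3, 5 and 6 and at 1321, 898, 723, 1082 and 968 TPM in SHR-Tti2+/- rats 1 to 5. It was high in SHR-Tti2+/- rats 1 and 4 and wild-type rat 3, and low in wild-type rat 1 and SHR-Tti2+/- rat 3. Of the 200 transcripts, 5 others followed it with r of at least 0.9, or 2.51%, against 98 of 9951 other transcripts at 10 TPM or more, or 0.985%. With r of -0.9 or below, 1 of the 200 ran opposite, ENSRNOT00000014491.6, or 0.503%, against 29 of the 9951, or 0.291%. ENSRNOT00000058295.5 was at 584, 922, 727 and 640 TPM in wild-type rats 1, 3, 5 and 6 and at 1005, 718, 541, 920 and 813 TPM in the SHR-Tti2+/- rats, with r = 0.963. ENSRNOT00000022280.5, ENSRNOT00000025279.5 and ENSRNOT00000075767.2 were high and low in the same rats, with r = 0.970, 0.959 and 0.979. Wild-type rat 2 had no part in these correlations but entered the means that chose the 200, so a high value there favoured membership. In it ENSRNOT00000003283.6 stood at 1.82 times the mean of the other 9 and these 4 transcripts at 1.47 to 2.14 times. ENSRNOT00000025279.5, at 263 TPM in that rat and 106 to 184 TPM in the others, ranked 192 of the 200. The remaining follower, ENSRNOT00000024402.4, varied little, with an SD of 0.0484, and was at 0.898 times the other 9 in rat 2.

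ENSRNOT00000047289.5 was at 202, 140, 133 and 136 TPM in wild-type rats 1, 3, 5 and 6 and at 141, 138, 150, 168 and 158 TPM in the SHR-Tti2+/- rats. Wild-type rat 1 was the highest of the 9, at 202 TPM against 133 to 168 TPM. How far the correlations below depend on that rat was not tested. With r of at least 0.9, 11 other transcripts of the 200 followed it, or 5.53%, against 259 of the 9951, or 2.60%. Among them ENSRNOT00000065953.2 was at 851, 701, 682 and 696 TPM against 665, 676, 767, 764 and 787 TPM, and ENSRNOT00000016230.4 at 1104, 916, 919 and 932 TPM against 872, 917, 966, 984 and 984 TPM. With r of -0.9 or below, 3 transcripts of the 200, or 1.51%, ran opposite, against 208 of the 9951, or 2.09%. They were lowest, of the 9, in wild-type rat 1, among them ENSRNOT00000064297.3, the second most abundant of the 200. In wild-type rat 2 all of these were below the mean of the other 9, the 11 followers at 0.381 to 0.930 times.

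**Figure D4:**
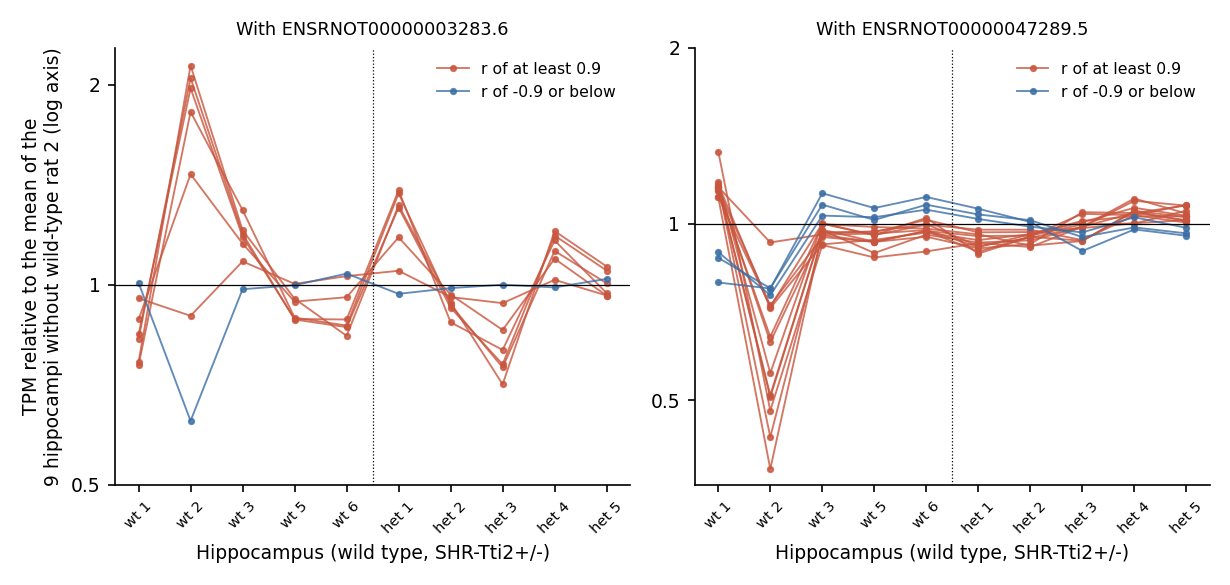
TPM of the transcripts that follow ENSRNOT00000003283.6 (left, with that transcript) and ENSRNOT00000047289.5 (right, with that transcript), relative to the mean of the 9 hippocampi without wild-type rat 2, on a log axis, in wild-type (wt) and SHR-Tti2+/- (het) rats. Lines join the values of a transcript, red for r of at least 0.9 and blue for r of -0.9 or below; the left red group is high in SHR-Tti2+/- rats 1 and 4, the right one in wild-type rat 1.

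The genotype comparison in hippocampus gave no call among the 200. All 200 passed the filter on low counts and were tested with 20512 others by edgeR's quasi-likelihood test, where a transcript was called at a fold change of 1.5 or more with a p-value, adjusted by Benjamini-Hochberg over all tested, below 0.1. Of the 200, 0 were called, against 0.00483% of all 20712 transcripts tested. An unadjusted p-value under 0.05 was found for 0 of the 200, against 4.22% of all tested, and the smallest adjusted p-value of the 200 was 0.939. DESeq2 also called 0 of the 200, with 0 at an unadjusted p-value under 0.05, against 0.0531% and 4.14% of all tested. The genotypes did not overlap in CPM for 0 of the 200, against 1.18% of all tested.

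The log2 fold changes, SHR-Tti2+/- over wild type, had a median of 0.04, with quartiles of -0.04 and 0.11 and a range from -1.28 to 0.29. The fold change was above 0 for 129 transcripts and below 0 for 71, while the median over all tested transcripts was 0.00052 and over those at 10 TPM or more -0.0046. The 95% interval of the fold change lay within 1.5-fold in either direction for 159 of the 200 and within 1.2-fold for 81. The median SE was 0.108.

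Without wild-type rat 2 the fold changes were closer to 0 and the excess of positive ones was gone: the median was -0.01, the range -0.20 to 0.17, and 78 were above and 122 below 0. The median over transcripts at 10 TPM or more was then -0.0098. Over all tested it was 0.0026, with 51.0% above 0. Of the 200, 0 were called, against 0.00489% of all tested. An unadjusted p-value under 0.05 was found for 3 of the 200, all lower in SHR-Tti2+/- rats, against 5.35% of all tested; 2.88% of all tested were lower at this limit. Their log2 fold changes were -0.05, -0.08 and -0.20, each with an edgeR adjusted p-value of 0.925. DESeq2 called 0, against 0.112%, and gave 3 at an unadjusted p-value under 0.05, against 4.77%. CPM did not overlap between genotypes for 0 of the 200, against 2.29%. The 95% interval then lay within 1.5-fold for 199 of the 200 and within 1.2-fold for 177, and the median SE was 0.0520. With wild-type rat 1 left out in place of rat 2, 0 of the 200 were called by edgeR, against 0.00487% of all tested. An unadjusted p-value under 0.05 was then found for 2, against 5.81%, and CPM did not overlap between genotypes for 3, against 2.76%. With rat 2 left out, the exception at 1.5-fold was ENSRNOT00000086036.1, the transcript that varied most between these rats.

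**Figure D5:**
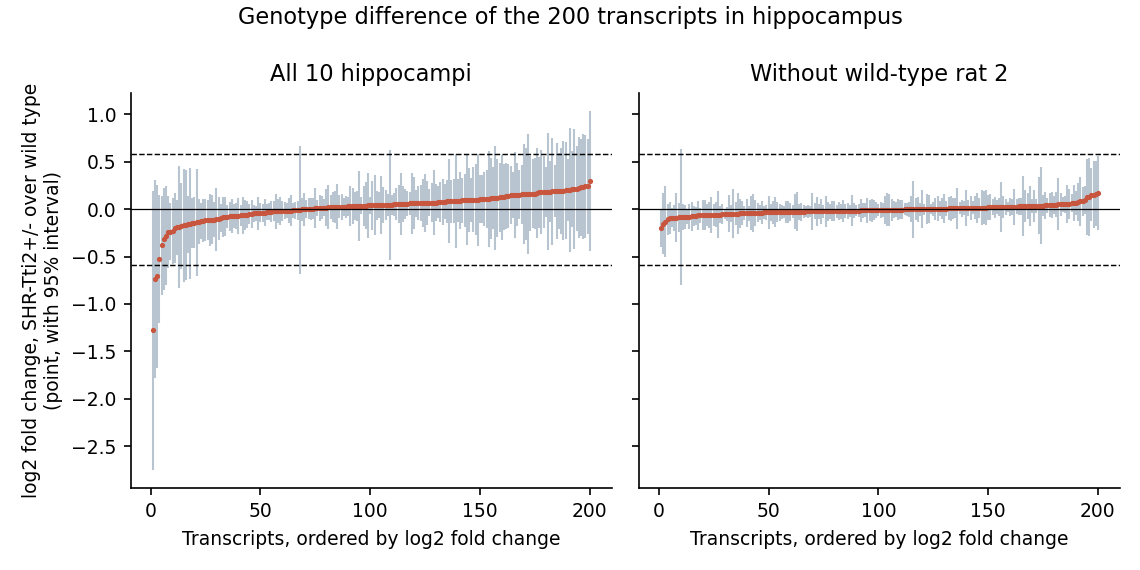
Log2 fold change, SHR-Tti2+/- over wild type, of the 200 transcripts in hippocampus with a 95% interval derived from the edgeR fit. Transcripts are ordered by fold change, over all 10 hippocampi (left) and without wild-type rat 2 (right). Dashed lines mark a fold change of 1.5; the interval lies between them for 159 transcripts on the left and 199 on the right.

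The 2 transcripts with the smallest p-values in each direction are given here rat by rat. On the lower side, ENSRNOT00000061047.3 had a log2 fold change of -1.28 (SE 0.662, edgeR adjusted p = 0.939), which without wild-type rat 2 was 0.095 (SE 0.0650, edgeR adjusted p = 0.954). Among the wild-type values given above, that rat alone lies outside the SHR-Tti2+/- range. Over all 10 hippocampi limma, which averages log values, gave it a log2 fold change of -0.54 to -0.53. ENSRNOT00000084582.1 was at 142, 220, 146, 144 and 159 TPM in the wild-type rats and at 141, 144, 128, 128 and 153 TPM in the SHR-Tti2+/- rats. Its log2 fold change was -0.24 (SE 0.136, edgeR adjusted p = 0.939), and -0.08 without wild-type rat 2.

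On the higher side, ENSRNOT00000064513.3 was at 162, 120, 135, 136 and 141 TPM in the wild-type rats and at 134, 155, 130, 191 and 183 TPM in the SHR-Tti2+/- rats. SHR-Tti2+/- rats 4 and 5 were above every wild-type rat and rats 1 to 3 were not, and the log2 fold change was 0.18 (SE 0.119, edgeR adjusted p = 0.939). ENSRNOT00000092445.1 was at 225, 158, 270, 278 and 261 TPM against 315, 269, 263, 264 and 249 TPM, with a log2 fold change of 0.19 (SE 0.123, edgeR adjusted p = 0.939). The genotypes overlapped for both transcripts. Without wild-type rat 2 the log2 fold changes were 0.15 and 0.08.

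In the other tissues fewer of the 200 were abundant enough to be tested by edgeR: 100 in liver, 125 in muscle and 141 in fat. In liver 0 were called, against 0.206% of all tested, and 8 had an unadjusted p-value under 0.05, against 10.1% of all tested. Of the 8, 5 were higher and 3 lower in SHR-Tti2+/- rats, against 5.2% and 4.9%. In muscle 0 were called, against 0.00552%, and 2 had an unadjusted p-value under 0.05, against 6.84%. In fat 0 were called, against 0% of all tested, and 11 had an unadjusted p-value under 0.05, against 6.96% of all tested. Of the 11, 6 were higher and 5 lower, against 3.81% and 3.15%. These shares were near those of all tested transcripts or below them. DESeq2 called 1 of the 100 tested in liver, against 0.646% of all tested, and 0 of the 125 in muscle and of the 141 in fat, against 0.221% and 0.0989%.

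The transcript called by DESeq2 in liver was ENSRNOT00000026654.6, at 0.494 to 0.827 TPM in the wild-type and 0.728 to 1.23 TPM in the SHR-Tti2+/- livers, and the groups overlapped. Its log2 fold change was 0.59 (SE 0.179, edgeR adjusted p = 0.280, DESeq2 adjusted p = 0.0998). The smallest p-value in liver belonged to ENSRNOT00000003932.7, at 8.85 to 9.91 TPM in the wild-type and 7.16 to 7.96 TPM in the SHR-Tti2+/- livers. The groups did not overlap, which held for 2 of the 100 transcripts tested, against 2.56% of all tested. Its log2 fold change of -0.28 (SE 0.0632, edgeR adjusted p = 0.145, DESeq2 adjusted p = 0.0117) was under the limit of 1.5-fold.

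In fat ENSRNOT00000022625.7 had the smallest p-value, at 0.0713 to 0.224 TPM in the wild-type and 0.261 to 0.537 TPM in the SHR-Tti2+/- rats, from 8 to 24 and 25 to 54 estimated counts. The groups did not overlap, which held for 2 of the 141 tested, against 1.32% of all tested, and the log2 fold change was 1.26 (SE 0.363, edgeR adjusted p = 0.684). In muscle the groups did not overlap for 0 of the 125 tested, against 1.3%. ENSRNOT00000087022.1 had the smallest p-value there, at 0.570 to 0.821 TPM in the wild-type and 0.613 to 1.2 TPM in the SHR-Tti2+/- rats, with a log2 fold change of 0.58 (SE 0.218, edgeR adjusted p = 0.681).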

How the data were processed

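The authors quantified polyadenylated, strand-specific, single-end libraries with kallisto (version 0.46.0 in the submitters' processing notes) against an Ensembl transcript set for rat. The deposited estimated counts (expected counts that need not be whole) and TPM values, both scaled by the authors' software only, were used; the deposited length and effective length in bases served for description. TPM chose and described the transcripts and entered no test. The 200 transcripts, the comparisons and the tests were chosen with earlier results of these data known. Groups and rat numbers came from the labels, and the rats are separate animals.

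Rounded to whole numbers, the estimated counts were fitted per tissue in R 4.3.3 with edgeR 4.0.16 (TMM, quasi-likelihood test, genotype as the only term; Benjamini-Hochberg adjustment over all transcripts tested). Tested transcripts had at least 5 counts in at least 47% of a tissue's samples. The SE was derived here, as the size of the log2 fold change divided by the square root of edgeR's F statistic. The 95% intervals used this SE and the t distribution of the fit, and are approximate. DESeq2 1.42.0 and limma 3.58.1 were alternatives. The authors' own test, by sleuth, was not run here. Between any 2 hippocampi of a genotype, the chi-square per degree of freedom of counts was at least 6.38 (20 pairs), so each was counted as 1 replicate.

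Transcripts named were, by rule, the 5 most abundant, the 2 with the smallest p-value in each direction, the 4 with the largest and 2 with the smallest SD, those at the thresholds and any called; exceptions are marked in the text, and those with the smallest p-value in the other tissues were added after the values were seen. No gene names were available to apply the planned marker lists.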

Additional observations from a re-analysis of the deposited data

Results flagged for a closer look

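Values that stand far from the others of their group of 5 hippocampi were sought by the gap to the nearest sample divided by the range of the group, with a limit of 0.71, in 42 groups. Chance passes about 1 in 20 groups that were not picked by their values, and 7 of the 42 passed. Of the 7, 4 are wild-type values of transcripts named for a large SD or a small p-value, and ENSRNOT00000026063.4 was named for a small SD. This chance does not apply to any of these transcripts. In 5 of the 7 groups the sample was wild-type rat 2: the median deviation of the 200 transcripts (0.807), ENSRNOT00000061047.3 (0.997), ENSRNOT00000020926.5 (0.945), ENSRNOT00000081888.1 (0.899) and ENSRNOT00000084582.1 (0.786). In the wild-type rats ENSRNOT00000026063.4 passed (0.753), where rat 6 was at 174 TPM and the others at 163 to 166 TPM. In the SHR-Tti2+/- rats ENSRNOT00000041533.5 passed (0.726), where rat 5 was at 1974 TPM and the others at 1745 to 1808 TPM. These values are given without an explanation.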

How the results depend on the processing

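In hippocampus the count of 0 called transcripts was the same under all 28 alternatives run, which included other normalization, filters and thresholds, DESeq2, limma, each sample left out and other member sets. The count at an unadjusted p-value under 0.05 was 0 to 3 with a sample left out, 2 without wild-type rat 1 (1%, against 5.81% of all tested) and 3 without wild-type rat 2, the latter also by DESeq2; that by DESeq2 was chosen after seeing the data. The count whose genotypes did not overlap was 0 to 3 with a sample left out, 3 without wild-type rat 1 (1.5%, against 2.76% of all tested). The median rat-to-rat SD was 0.0828 to 0.203 with a sample left out, the lowest without wild-type rat 2. The median log2 fold change was -0.01 to 0.05 with a sample left out, and that of ENSRNOT00000061047.3 was -1.49 to 0.095, with 0.095 without wild-type rat 2, -0.54 to -0.53 by limma and -0.59 with the replicate block. The 200 transcripts made up 11.3% of the estimated counts of a hippocampus, against 7.08% of its TPM, since counts are not divided by length. Taking the 100 highest left 100 by construction; with 10 or 50 times in place of 20, the 200 kept shared 175 or 159 with those described. In liver DESeq2 called 1 transcript; the cause was not tested. With the rat number as a replicate block, 0 of the 200 were called in hippocampus and the median log2 fold change was 0.06. Rats 1, 2, 3 and 5 of the 2 genotypes share only a number, and the correlations of their deviations were -0.191, 0.0145, 0.00405 and -0.0713. In the other 3 tissues the block gave 0 calls too. With 5 rats per genotype and 1 of them apart, the fold changes of 41 transcripts are not bounded within 1.5-fold.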
